A study of Mus musculus with 8 samples.

Results

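The Wnt target and early mesendoderm genes described here were 9 genes, chosen by name: Axin2, Lef1, Tcf7, Sp5, Cdx1, T, Mixl1, Gsc and Dkk1. The choice was made with earlier results of these data known. Of the 9, 7 had a probe set with exactly 1 gene symbol, 10 probe sets in all among the 34758 used; Tcf7 and T were not analysed here. The levels come from 8 one-colour Affymetrix arrays, in 4 groups of 2. The cells were mouse embryonic stem cells of the V6.5 line. Every group carried a lentiviral short hairpin RNA, delivered with polybrene (8 µg/ml) and followed by 4 days of puromycin (4 µg/ml), and RNA was taken on day 5. The knockdowns were Smc1 (cohesin, gene Smc1a; 1 hairpin, 2 biological replicates), CapH2 (condensin II, gene Ncaph2; hairpins 3 and 4, 1 array each) and Smc2 (condensin I and II; hairpins 1 and 2, 1 array each), and the control carried a hairpin against GFP (1 hairpin, 2 biological replicates). With 1 hairpin for Smc1, other effects of that hairpin cannot be told apart from those of losing Smc1a. The pooled spread behind every test mixes differences between hairpins with differences between replicates.

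Canonical Wnt signalling works through β-catenin. Without a Wnt ligand, a destruction complex built on Axin and Apc marks β-catenin for degradation; a ligand bound to Frizzled and Lrp receptors stops that complex, and β-catenin then joins TCF/LEF factors on their target genes. Axin2, Sp5, Lef1 and Dkk1 are targets that feed back on the pathway, and Cdx1 responds to Wnt signals in the primitive streak. Mixl1 and Gsc are switched on with Wnt and Nodal signals when pluripotent cells form the streak and its mesendoderm. In mouse embryonic stem cells Wnt signals also favour self-renewal, largely by relieving repression by Tcf7l1.

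The promoter windows of 4 of the genes tested below are shown because TCF/LEF factors act through short letters in the DNA. Each is the 300 bases around a RefSeq start site (build GRCm38.p6), 250 before it and 50 from it on, written 5′ to 3′ on the gene's strand. Capitals mark CTTTG followed by 2 letters that are each A or T, on either strand, a form of the TCF/LEF motif; overlapping matches would count once each.
Sp5, chr2:70474673-70474972, plus strand: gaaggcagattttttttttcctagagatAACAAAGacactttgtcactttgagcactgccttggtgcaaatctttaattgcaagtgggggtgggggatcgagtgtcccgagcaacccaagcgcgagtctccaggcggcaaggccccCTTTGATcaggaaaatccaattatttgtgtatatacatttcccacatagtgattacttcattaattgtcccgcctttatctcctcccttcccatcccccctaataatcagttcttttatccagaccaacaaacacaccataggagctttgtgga
Dkk1, chr19:30549447-30549746, minus strand: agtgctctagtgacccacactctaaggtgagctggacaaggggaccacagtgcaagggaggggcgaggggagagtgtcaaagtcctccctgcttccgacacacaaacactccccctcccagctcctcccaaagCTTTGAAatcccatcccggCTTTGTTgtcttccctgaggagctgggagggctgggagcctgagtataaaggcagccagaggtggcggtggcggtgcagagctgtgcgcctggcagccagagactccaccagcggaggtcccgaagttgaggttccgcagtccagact
Axin2, chr11:108920099-108920398, plus strand: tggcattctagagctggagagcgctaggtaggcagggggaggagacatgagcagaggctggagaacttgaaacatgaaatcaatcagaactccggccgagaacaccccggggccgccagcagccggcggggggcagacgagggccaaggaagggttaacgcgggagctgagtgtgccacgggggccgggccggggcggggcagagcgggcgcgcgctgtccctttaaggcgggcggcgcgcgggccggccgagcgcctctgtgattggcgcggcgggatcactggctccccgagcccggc
Lef1, chr3:131110047-131110346, plus strand: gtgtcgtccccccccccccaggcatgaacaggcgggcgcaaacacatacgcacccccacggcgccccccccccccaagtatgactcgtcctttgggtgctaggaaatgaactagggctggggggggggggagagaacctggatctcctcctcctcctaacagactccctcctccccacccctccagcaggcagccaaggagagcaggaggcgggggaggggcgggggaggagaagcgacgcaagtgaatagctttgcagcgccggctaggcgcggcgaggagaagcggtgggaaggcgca
The windows of Sp5 and Dkk1 held 2 matches each, which began 222 and 104 bases before the start site in Sp5 and 117 and 98 bases before it in Dkk1. The windows of Axin2 and Lef1 shown held none; Lef1 has 4 annotated windows, of which 1, at a start site further downstream, held 1 match. Of all 32851 RefSeq windows of this length, 16.9% held at least 1 match and 1.94% at least 2. A match is a run of letters and no evidence of binding, and its absence says only that these letters are not in this window.

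The arrays were comparable in scale, with array medians between 62.5 and 74.5 intensity units. Each targeted gene was lowest on its own arrays, at 12.6% (Smc1a), 12.5% (Ncaph2) and 32.03% (Smc2) of its GFP mean. All 10 embryonic stem cell markers listed lay above the array median on all 8 arrays. The 3′ to 5′ signal ratio of the Actb control probe sets, which grows as RNA or labelling gets worse, was 1.70 and 1.84 for Smc1 replicates 1 and 2, 1.67 and 1.98 for CapH2 hairpins 3 and 4, 1.82 and 2.18 for the Smc2 pair (hairpins 1 and 2), and 2.18 and 2.04 for GFP replicates 1 and 2.

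Values are intensity on a linear scale, and differences are log2(value + 16), which understates the change of dim genes. A gene was tested where its brightest probe set lay above the array median on at least 2 of the 8 arrays. Of the 7 genes measured, 5 passed: Axin2, Lef1, Sp5, Cdx1 and Dkk1. Cdx1 passed through the Smc1 arrays alone, so its difference follows in part from the filter. Mixl1 and Gsc lay below the array median on all 8 arrays, and with no detection call at hand their levels may be background. A gene was called at an adjusted p below 0.05 (limma, Benjamini-Hochberg over the 12400 genes tested).

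Of the 5 genes tested, Sp5 rose in the Smc1 knockdown and the other 4 were not called; the share of all 12400 genes called there was 14.1%, and 9.38% were called higher and 4.69% lower. At an unadjusted p below 0.05 all 5 passed, against 31.2% of all genes. This count follows in part from the filter, since Cdx1 entered the test through the Smc1 arrays alone. Sp5 and Dkk1 lay below the median on both GFP arrays and entered through knockdown arrays. No member was called in the CapH2 or the Smc2 knockdown, where 0.0161% of all genes were called in each. At an unadjusted p below 0.05, Sp5 alone of the 5 passed in either, against 1568 genes in CapH2 and 1565 in Smc2, 12.6% each. Over all 7 measured genes, the 2 Smc1 arrays lay above both GFP arrays in 6, the CapH2 arrays in 3 and the Smc2 arrays in 2. The same held for 29.1%, 22.1% and 20.5% of all 18140 genes. The 3 comparisons share the GFP arrays. In bulk samples such as these, a change in the number of cells that express a gene cannot be told apart from a change in RNA per cell.

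**Figure D1:**
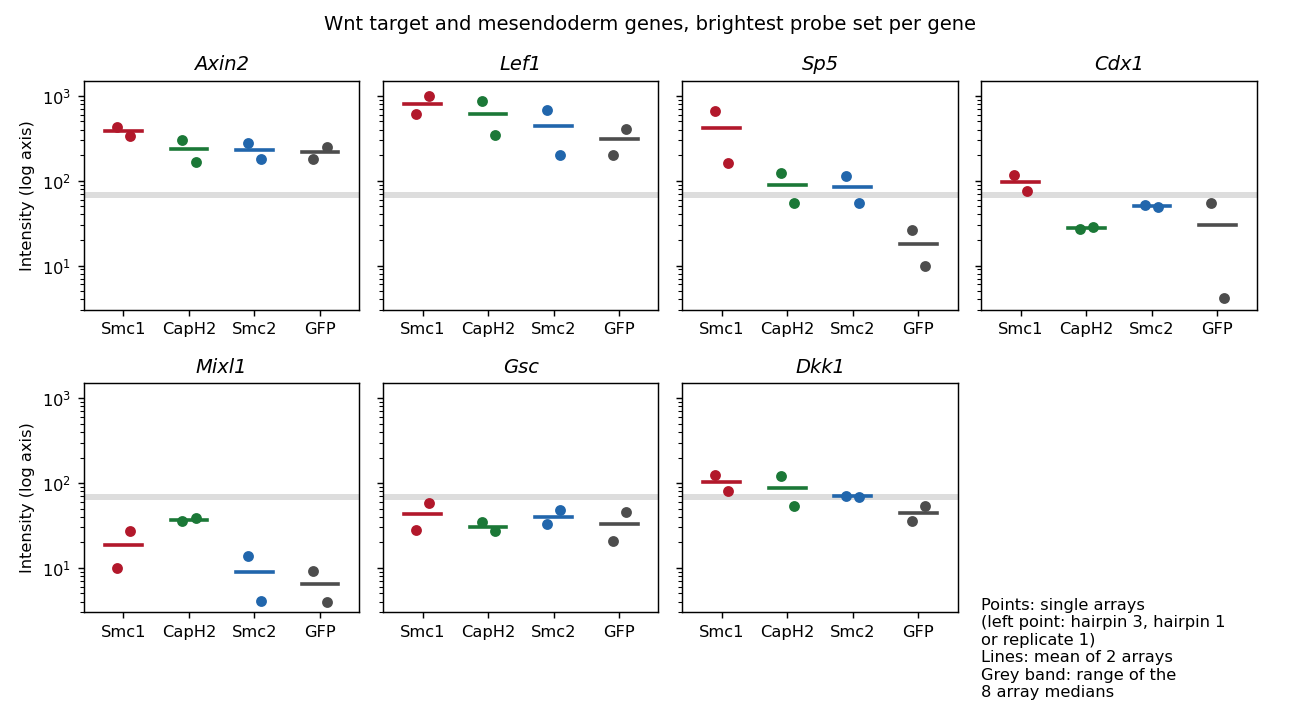
Intensity of the brightest probe set of each of the 7 genes on the 8 arrays (log axis), with the mean of each group of 2 as a line and the range of the array medians, 62.5 to 74.5, as a grey band. Sp5 spans 9.75 to 674, Axin2 and Lef1 lie above the band on every array, and Mixl1 and Gsc lie below it on every array.

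Sp5, a zinc finger factor of the Sp family and a direct Wnt target, had an intensity of 674 (replicate 1) and 162 (replicate 2) after Smc1 knockdown, 123 (hairpin 3) and 55.0 (hairpin 4) after CapH2 knockdown, 114 (hairpin 1) and 54.0 (hairpin 2) after Smc2 knockdown, and 26.5 (replicate 1) and 9.75 (replicate 2) in GFP controls. All 6 knockdown arrays lay above both GFP arrays, and both Smc1 arrays lay above all 4 condensin arrays. In the Smc1 knockdown it rose by 3.41 on the log2 scale (SE 0.626, adjusted p = 0.00886), a change exceeded upward by 20 of the 12400 genes. The 2 Smc1 arrays were themselves 1.95 log2 units apart. Both GFP values lay below the array medians, so the size of the rise, a ratio of means of 23.1, is not firm. In the CapH2 knockdown its log2 change was 1.59 (SE 0.626, adjusted p = 0.363) and in the Smc2 knockdown 1.53 (SE 0.626, adjusted p = 0.364), neither called. The call in the Smc1 knockdown was lost without Smc1 replicate 1 (2.43, adjusted p = 0.0873), without GFP replicate 1 (3.77, 0.0569), without GFP replicate 2 (3.05, 0.0668), and with the Actb ratio as a term, chosen after the data were seen (2.40, 0.0819).

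Axin2, a scaffold of the destruction complex and a feedback inhibitor of the pathway, had an intensity of 430.3 (replicate 1) and 339 (replicate 2) after Smc1 knockdown, 303 (hairpin 3) and 166 (hairpin 4) after CapH2 knockdown, 275 (hairpin 1) and 181 (hairpin 2) after Smc2 knockdown, and 182 (replicate 1) and 252 (replicate 2) in GFP controls. Both Smc1 arrays lay above all 6 others, while the CapH2 and Smc2 arrays overlapped GFP. The log2 change was 0.79 in the Smc1 knockdown (SE 0.326, adjusted p = 0.132, unadjusted p = 0.0365), 0.06 in CapH2 (adjusted p = 0.950) and 0.05 in Smc2 (adjusted p = 0.958), and none was called. A second, dim probe set of Axin2 lay between 2.32 and 19.3 on the 8 arrays, below the median on all, and its log2 changes were 0.04 in Smc1, 0.69 in CapH2 and 0.29 in Smc2, none called.

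Lef1, a TCF/LEF factor that is itself a Wnt target, had an intensity of 608 (replicate 1) and 987 (replicate 2) after Smc1 knockdown, 869 (hairpin 3) and 349 (hairpin 4) after CapH2 knockdown, 681 (hairpin 1) and 202 (hairpin 2) after Smc2 knockdown, and 204 (replicate 1) and 413 (replicate 2) in GFP controls. The Smc1 arrays lay above both GFP arrays, and in each condensin knockdown 1 array lay above and 1 within or below the GFP range. Its log2 change was 1.37 in the Smc1 knockdown (SE 0.573, adjusted p = 0.137, unadjusted p = 0.0384), 0.89 in CapH2 (adjusted p = 0.531) and 0.34 in Smc2 (adjusted p = 0.817). The dimmer probe set of Lef1 lay between 3.92 and 75.7 and had log2 changes of 0.97, 0.95 and -0.05 in the same order, so that the brighter and the dimmer one differed in sign in the Smc2 knockdown.

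Dkk1, a secreted antagonist that blocks the Lrp co-receptors, had an intensity of 125 (replicate 1) and 81.1 (replicate 2) after Smc1 knockdown, 122 (hairpin 3) and 54.2 (hairpin 4) after CapH2 knockdown, 70.9 (hairpin 1) and 69.3 (hairpin 2) after Smc2 knockdown, and 36.2 (replicate 1) and 53.7 (replicate 2) in GFP controls. As for Sp5, all 6 knockdown arrays lay above both GFP arrays, although CapH2 hairpin 4 did so by little. The log2 changes were 0.95 in Smc1 (SE 0.412, adjusted p = 0.146, unadjusted p = 0.0430), 0.71 in CapH2 (adjusted p = 0.491) and 0.51 in Smc2 (adjusted p = 0.610), with no call. Both GFP values lay below the array median. Its second probe set lay between 1.83 and 31.3, below the median on every array; its log2 changes were 0.63 in Smc1, -0.07 in CapH2 and -0.56 in Smc2, the last 2 opposite in sign to the brighter probe set.

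Cdx1, a caudal homeobox factor of the primitive streak that responds to Wnt and retinoic acid, had an intensity of 118 (replicate 1) and 76.7 (replicate 2) after Smc1 knockdown, 26.9 (hairpin 3) and 28.5 (hairpin 4) after CapH2 knockdown, 51.9 (hairpin 1) and 49.2 (hairpin 2) after Smc2 knockdown, and 55.3 (replicate 1) and 4.11 (replicate 2) in GFP controls. Only the Smc1 arrays lay above the array medians, and they lay above all 6 others. Its log2 change was 1.56 in Smc1 (SE 0.572, adjusted p = 0.0964), 0.21 in CapH2 (adjusted p = 0.903) and 0.81 in Smc2 (adjusted p = 0.565). The 2 GFP arrays were 1.83 log2 units apart, and without GFP replicate 2 the Smc1, CapH2 and Smc2 values were 0.64, -0.71 and -0.10; without GFP replicate 1 they were 2.47, 1.12 and 1.73, none called.

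Mixl1, a homeobox factor of the primitive streak, lay between 3.93 and 38.8 on the 8 arrays. Its intensity was 10.03 and 26.9 in Smc1, 35.5 and 38.8 in CapH2, 13.9 and 4.11 in Smc2, and 9.12 and 3.93 in GFP. The CapH2 arrays were the brightest, all at levels below the array medians. In the fit over all 34758 probe sets, which called 5.17% in Smc1, 0.00575% in CapH2 and 0.00288% in Smc2, its log2 change was 0.58 in Smc1 (adjusted p = 0.411), 1.25 in CapH2 (adjusted p = 0.356) and 0.13 in Smc2 (adjusted p = 0.928), with no call.

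Gsc, the homeobox factor goosecoid of the organizer and anterior streak, gave 27.6 and 58.4 in Smc1, 34.4 and 26.9 in CapH2, 32.4 and 47.6 in Smc2, and 20.6 and 45.1 in GFP. Every group overlapped GFP. The log2 changes were 0.27, -0.02 and 0.23 in the Smc1, CapH2 and Smc2 knockdowns (adjusted p = 0.779, 0.991 and 0.880), and the CapH2 value was 0.026 after quantile normalization and 0.046 after median centring.

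**Figure D2:**
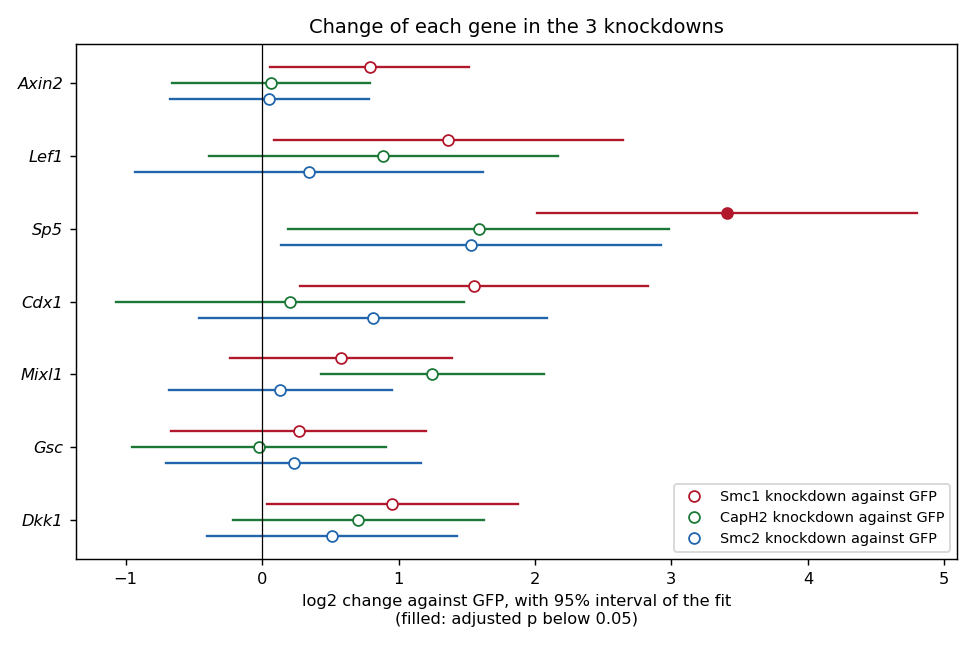
The log2 change of each of the 7 genes against GFP in the Smc1, CapH2 and Smc2 knockdowns, as points with 95% intervals of the fit; a filled point marks an adjusted p below 0.05. Only Sp5 in the Smc1 knockdown, at 3.41, is filled; the intervals of Sp5 in the CapH2 and Smc2 knockdowns run from 0.19 to 2.98 and from 0.14 to 2.93.

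The comparison of the Smc1 knockdown with the mean of the CapH2 and Smc2 knockdowns asks whether the Smc1 response of these genes was larger than that of the condensin knockdowns. No member was called, against 7.85% of all genes (5.6% higher and 2.24% lower). The difference was 1.85 for Sp5 (SE 0.542, adjusted p = 0.0680), 0.73 for Axin2 (SE 0.283, adjusted p = 0.153), 1.05 for Cdx1 (SE 0.495, adjusted p = 0.237), 0.75 for Lef1 (adjusted p = 0.405) and 0.35 for Dkk1 (adjusted p = 0.612). The Smc1 arrays lay above all 4 condensin arrays in Sp5, Cdx1 and Axin2, 3 of the 7 measured genes, as in 17.2% of all genes. The 95% interval of the Sp5 difference ran from 0.64 to 3.06. The value rests on Smc1 replicate 1: without it the Sp5 difference was 0.87 (adjusted p = 0.543), and without Smc1 replicate 2 it was 2.82 (adjusted p = 0.0325).

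Between the CapH2 and Smc2 knockdowns no member differed by the test (0.00806% of all genes called; 128 genes, or 1.03%, and none of the 5 members at an unadjusted p below 0.05). The difference was 0.06 for Sp5 (95% interval -1.34 to 1.45), 0.54 for Lef1 (-0.73 to 1.82), 0.01 for Axin2 (-0.72 to 0.74), 0.19 for Dkk1 (-0.73 to 1.11) and -0.61 for Cdx1 (-1.88 to 0.67). These intervals leave room for differences of more than 2-fold in Sp5, Lef1, Dkk1 and Cdx1, so the genes are not shown to act alike. For Axin2 the limits lay within 2-fold. The fit took the condensin arrays as independent, although they were alike in pairs across the knockdowns. Over all genes tested, CapH2 hairpin 3 had an r of 0.985 with Smc2 hairpin 1 and 0.974 with CapH2 hairpin 4. Smc2 hairpin 2 had an r of 0.984 with CapH2 hairpin 4 and 0.968 with Smc2 hairpin 1. The intervals do not use this pairing, and a fit with it was not run. Of the 7 measured genes, Mixl1 alone was higher on both CapH2 arrays than on both Smc2 arrays (14.2% of all genes were), by 1.11 (adjusted p = 1.00 in the fit over all probe sets, which called 0.00288%), and it lay below the array medians in both groups. Cdx1 alone was lower on both CapH2 arrays than on both Smc2 arrays, as 12% of all genes were, also below the array medians in both groups.

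Within each condensin knockdown the hairpins differed in the same direction for Lef1, Sp5 and Axin2. Dkk1 differed between the CapH2 hairpins and hardly between the Smc2 hairpins. Lef1 was higher by 1.28 log2 units on CapH2 hairpin 3 than on hairpin 4, and by 1.68 on Smc2 hairpin 1 than on hairpin 2. The same differences were 0.97 and 0.90 for Sp5, 0.81 and 0.56 for Axin2, and 0.97 and 0.03 for Dkk1, but -0.05 and 0.06 for Cdx1. Over all genes tested, the deviations of CapH2 hairpin 3 and Smc2 hairpin 1 from their group means had an r of 0.41. Of all 12400 genes 31.4% were higher on both of these arrays, and 0.548% by at least 1 unit on both, as Lef1 was. Of all genes tested, 98.8% had a smaller CapH2 hairpin difference than Lef1 and 99.7% a smaller Smc2 one. The Actb ratio was lower on the arrays of CapH2 hairpin 3 and Smc2 hairpin 1 (1.67 and 1.82) than on those of hairpins 4 and 2 (1.98 and 2.18). Across the 8 arrays its Pearson's r with the log2 level was -0.90 for Lef1, -0.85 for Dkk1, -0.83 for Axin2, -0.77 for Sp5 and -0.28 for Cdx1; these arrays share groups and hairpins. The part of RNA or labelling quality in these differences was not tested, beyond the fit with the ratio as a term. There the CapH2 values were -0.23 for Lef1 and -0.53 for Axin2, opposite in sign to those without it. In the same fit the Smc1 values against GFP were 0.02 for Lef1, 0.07 for Axin2 and 0.39 for Dkk1. These were their lowest values in that comparison over 21 alternatives of the processing, and none was called. The ratios of both Smc1 arrays (1.70 and 1.84) and both CapH2 arrays (1.67 and 1.98) lay below those of both GFP arrays (2.18 and 2.04). Ratio and knockdown are thus partly confounded, and the fit with the ratio cannot tell them apart.

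**Figure D3:**
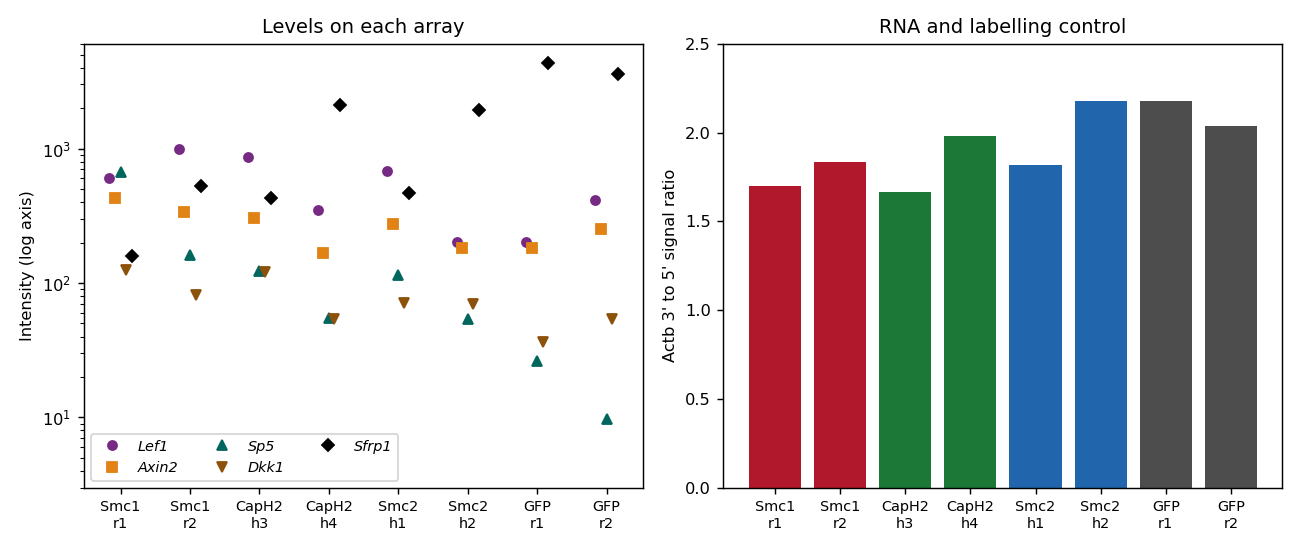
Left, intensity (log axis) of Lef1, Axin2, Sp5, Dkk1 and Sfrp1 on each of the 8 arrays (h, hairpin; r, replicate). Right, the Actb 3′ to 5′ signal ratio of each array as bars, from 1.67 to 2.18. Lef1 is higher and Sfrp1 lower on CapH2 hairpin 3 and Smc2 hairpin 1 than on the other hairpin of each knockdown.

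In the lists of other Wnt genes, counts in the Smc1 knockdown stand against the 9.38% of all tested genes that were called higher and the 4.69% called lower. These lists, too, were chosen with earlier results of these data known. Of 21 genes for ligands and their secretion, 11 were tested, 3 rose and 0 fell, with a median log2 change of 0.57 (0.03 over all genes). Wls, the carrier that takes Wnt proteins to the cell surface, averaged 1040 ± 459 on the Smc1 arrays and 133 ± 5.95 on the GFP arrays (SD, n = 2 each), a log2 change of 2.75 (SE 0.349, adjusted p = 0.00276). The ligand genes Wnt4 and Wnt9a rose by 1.91 (adjusted p = 0.0103) and 1.26 (adjusted p = 0.0364). The Wnt9a call held in 11 of 21 alternatives of the processing. Of the 3 other Wls probe sets, 2 moved the same way and 1 was at -0.32. Wnt3, a ligand of the primitive streak, did not pass the filter. It measured 79.1 and 41.5 on the Smc1 arrays and 3.62 and 18.6 on the GFP arrays. On the CapH2 arrays it was at 21.9 and 9.06, and on the Smc2 arrays at 23.1 and 45.0, the last above Smc1 replicate 2. Wnt3a, also outside the filter, measured 46.4 and 31.5 on the Smc1 arrays and 46.2 and 33.1 on the GFP arrays.

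Of 24 receptor, R-spondin and receptor turnover genes 18 were tested, 4 rose and 0 fell (median 0.39). Lgr4, an R-spondin receptor, averaged 4288 ± 202 on the Smc1 arrays and 1706 ± 338 on the GFP arrays, a log2 change of 1.33 (SE 0.209, adjusted p = 0.00503). The Frizzled receptor genes Fzd2 (1.59, adjusted p = 0.00676), Fzd1 (1.31, adjusted p = 0.00814) and Fzd6 (1.50, adjusted p = 0.0110) rose too. The other probe set of Fzd1 was at -0.11, while those of Fzd2 were at 1.46 and 1.99. The counts for ligands and receptors were 1 and 0 when either Smc1 replicate 1 or GFP replicate 1 was left out, and 1 and 3 when GFP replicate 2 was.

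Secreted inhibitors moved both ways. Of 17 listed, 10 were tested, 1 rose and 2 fell (median 0.15). Sfrp1, which binds Wnt proteins outside the cell, had an intensity of 160 (replicate 1) and 528 (replicate 2) after Smc1 knockdown, 432 (hairpin 3) and 2122 (hairpin 4) after CapH2 knockdown, 464 (hairpin 1) and 1920 (hairpin 2) after Smc2 knockdown, and 4297 (replicate 1) and 3599 (replicate 2) in GFP controls. All 6 knockdown arrays lay below both GFP arrays, and Smc1 replicate 1 was the lowest. In the Smc1 knockdown it fell by 3.67 (SE 0.790, adjusted p = 0.0157), and its 4 other probe sets were at -2.66 to -1.38. It was not called in CapH2 (-2.01, adjusted p = 0.363) or Smc2 (-2.03, adjusted p = 0.349). Singled out after its values were seen, Sfrp1 had a Pearson's r over the 8 arrays of -0.94 with Sp5, -0.90 with Dkk1, -0.85 with Axin2, -0.77 with Lef1 and -0.61 with Cdx1, over arrays that share groups and hairpins. The related Sfrp4 fell by 1.65 (adjusted p = 0.00389) and Sfrp2 rose by 1.82 (adjusted p = 0.0116). Without GFP replicate 1 none of the 3 was called, and without Smc1 replicate 1 or GFP replicate 2 a single one was.

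Inside the cell, in the destruction complex and transducer list 2 of 17 tested genes rose and 0 fell (median 0.18): the ubiquitin ligase gene Fbxw11 (0.88, adjusted p = 0.00538) and the casein kinase gene Csnk1d (1.42, adjusted p = 0.0213), of whose 3 other probe sets 2 were lower. Ctnnb1, which codes for β-catenin itself, averaged 19337 ± 975 on the Smc1 arrays and 19256 ± 619 on the GFP arrays, a log2 change of 0.01 (SE 0.0998, adjusted p = 0.977). In the nuclear effector list 2 of 13 rose and 0 fell (median 0.17). They were the coactivator gene Crebbp (0.91, adjusted p = 0.0147) and Tcf7l1 (1.21, adjusted p = 0.0240), the TCF factor that acts mainly as a repressor in mouse embryonic stem cells. The 2 counts were 0 and 0 when either replicate 1 (Smc1 or GFP) was left out, 1 and 0 without the second Smc1 array, and 1 and 2 without the second GFP array.

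**Figure D4:**
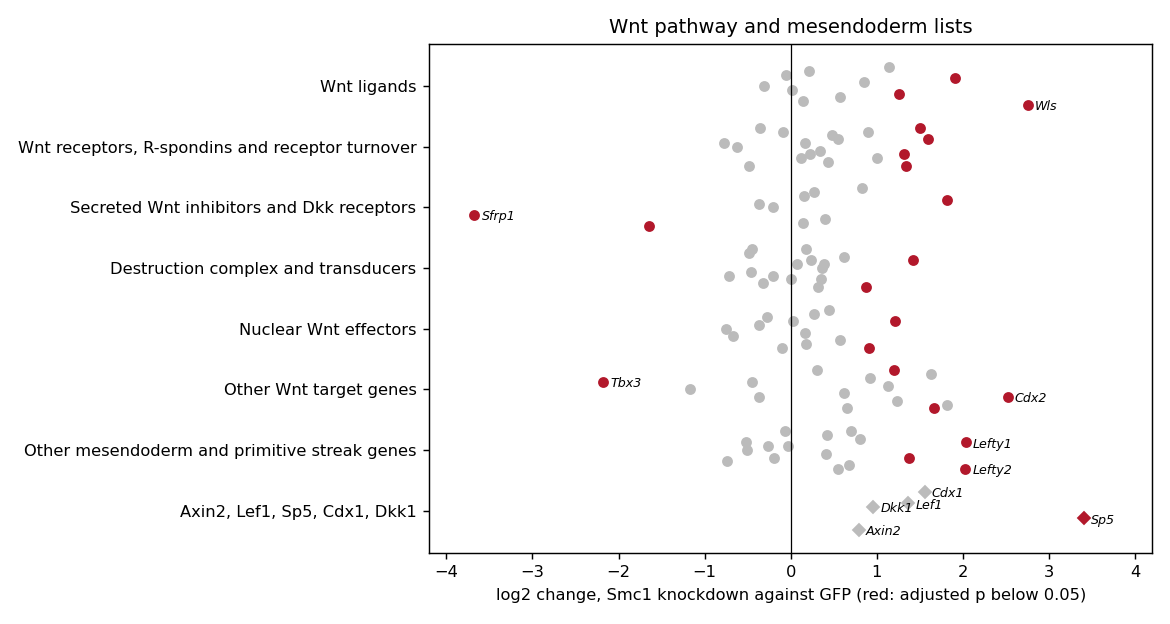
The log2 change in the Smc1 knockdown against GFP of each tested gene of 7 Wnt and mesendoderm lists, with the 5 tested genes of this account as diamonds in the lowest row; red marks an adjusted p below 0.05. Sp5 lies at 3.41, Wls at 2.75 and Sfrp1 at -3.67; Cdx1 and Cdx2 (1.56 and 2.52) entered the test through the Smc1 arrays alone.

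Of 19 further Wnt target genes 15 were tested, 3 were called higher, Cdx2 among them, and 1 lower, with a median of 0.92. Id2, an inhibitor of basic helix-loop-helix factors, rose by 1.66 (adjusted p = 0.00355) and averaged 2692 ± 160 on the Smc1 arrays and 859 ± 248 on the GFP arrays. Cdx2, the caudal factor of trophectoderm and posterior streak and a relative of Cdx1, measured 240 and 118 on the Smc1 arrays and at most 54.8 on the 6 others, below their array medians. Like Cdx1 it entered the test through the Smc1 arrays alone, so its call (2.52, adjusted p = 0.0110) follows in part from the filter; with no filter the adjusted p was 0.0173. Plaur, the urokinase receptor gene, rose by 1.20 (adjusted p = 0.0444), a call that held in 10 of 21 alternatives of the processing. Tbx3, a T-box factor of the naive state, fell by 2.18 (adjusted p = 0.00794). Of its 4 other probe sets, 3 moved the same way and 1 was at 0.55. Without CapH2 or Smc2 arrays in turn the count of 4 became 6 or 7, and it was 1 without Smc1 replicate 1 and 2 without either GFP array.

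Of 25 further mesendoderm and primitive streak genes 16 were tested, 3 rose and 0 fell, with a median of 0.42. Lefty1 and Lefty2, secreted Nodal inhibitors that are Nodal targets, averaged 7440 ± 2114 and 3495 ± 882 on the Smc1 arrays and 1774 ± 138 and 843 ± 172 on the GFP arrays. They rose by 2.03 (adjusted p = 0.0135) and 2.02 (adjusted p = 0.00396). Lefty1 was above both GFP arrays on all 6 knockdown arrays, and its log2 changes were 2.12 in CapH2 (adjusted p = 0.155) and 1.72 in Smc2 (adjusted p = 0.220), neither called. Pdgfra, a growth factor receptor of mesoderm and primitive endoderm, rose by 1.37 (adjusted p = 0.0408), and of its 2 other probe sets 1 was at -0.40. Its call held in 12 of 21 alternatives of the processing. The streak factors Eomes (-0.19, adjusted p = 0.764) and Mesp1 (-0.03, adjusted p = 0.963) were not called. No gene of the list was called without Smc1 replicate 1 or without GFP replicate 1.

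In the CapH2 and Smc2 knockdowns no gene of these 7 lists was called. Their medians there ran from -0.29 (secreted inhibitors) to 0.38 (other Wnt targets) in CapH2 and from -0.51 to 0.24 for the same lists in Smc2, against 0.01 and 0.00 over all genes. In the Smc1 knockdown against the condensin knockdowns, Wls (1.70, adjusted p = 0.0124), Wnt4 (1.69, 0.0147), Wnt9a (1.32, 0.0265), Fzd2 (0.96, 0.0353), Fzd6 (1.00, 0.0426), Kremen1 (1.05, 0.0396), Plaur (1.90, 0.00767), Id2 (1.10, 0.0145) and Lefty2 (1.24, 0.0224) were higher, as was Cdx2 (1.84, 0.0304, and 0.0429 with no filter), which entered the test through the Smc1 arrays alone. Sfrp4 (-1.26, 0.00972) and Tbx3 (-1.79, 0.0153) were lower. Sfrp1 was not called there (-1.65, adjusted p = 0.179). Without Smc1 replicate 1 no gene of the 7 lists was called in this comparison. Over the 21 alternatives Fzd6 was called in 6, Kremen1 in 7, Fzd2 and Wnt9a in 10 each and Cdx2 in 13, and the other 7 genes in 18 to 20.

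The summed levels of markers of other cells were higher on the Smc1 arrays than on all others. A few bright genes set much of each sum, and single markers went both ways. The part of such cells in the changes of the Wnt genes was not tested. The summed intensity of 13 trophectoderm markers, Cdx2 among them, was 55820 and 40781 on the Smc1 arrays, 11131 to 20791 on the 4 condensin arrays, and 19943 and 28245 on the GFP arrays. Krt8 (20014.5 and 15514) and Krt18 (25785 and 16752) made up most of it on the Smc1 arrays. Tfap2c was lower there than on the GFP arrays (1150 and 1251 against 2816 and 4225). Of 12 tested, 3 were called higher (Cdx2 one of them) and 1 lower against GFP (9.38% and 4.69% of all genes). Against the condensin knockdowns 7 were higher and 1 lower (5.6% and 2.24% of all genes). Gata3, like Cdx2, entered the test through the Smc1 arrays alone. The sum of 21 feeder fibroblast markers was 34145 and 31307 on the Smc1 arrays, 18801 to 24071 on the condensin arrays, and 17820 and 27074 on the GFP arrays, and 3 of 17 tested rose. Much of the sum on the Smc1 arrays was Acta2 (8653 and 7799) and Tagln (9340 and 4537). On the GFP arrays Acta2 measured 3077 and 5350, and Tagln 974 and 1470. Fn1 (6344 and 10311 against 7013 and 9505) and Vim (6994 and 6377 against 5307 and 9207) overlapped GFP. Postn was lower (19.5 and 26.1 against 68.1 and 73.1). The sum of 15 primitive endoderm markers was 10839 and 11099 on the Smc1 arrays, 5571 to 10542 on the condensin arrays, and 5522 and 7544 on the GFP arrays, and 2 of 12 rose. Lamb1 (4470 and 4673) and Col4a1 (3408 and 3367) made up most of it on the Smc1 arrays. Gata6 was lower there than on the GFP arrays (110 and 94.0 against 131 and 176). The sum of 10 embryonic stem cell markers was 88188 and 104332 on the Smc1 arrays, 120289 to 134235 on the condensin arrays, and 137663 and 134600 on the GFP arrays, and 6 of 10 fell. No marker of these 4 lists was at 0 on any array.

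The genes whose log2 level followed each tested member most closely over the 8 arrays are given as a description. For Sp5 they were Zfp410 (Pearson's r = 0.99), Frmd4b (0.98) and Pxdc1 (0.98), and 331 genes had an r above 0.9. For Axin2 they were Tpm3 (1.00), Rac3 (0.99) and Tmem79 (0.99), for Lef1 Aar2 (0.97), Akap13 (0.97) and Wars (0.97), and for Cdx1 Lrrk2 (0.95), Foxa3 (0.95) and Mapk12 (0.95). For Dkk1 they were Zcchc12 (0.99), Ppp1r14c (0.98) and Kctd20 (0.98); Zcchc12 stood in the list of further Wnt targets and was not called in the Smc1 knockdown (1.23, adjusted p = 0.0581). Among the 5 members themselves, r ran from 0.16 (Lef1 and Cdx1) to 0.82 (Sp5 and Dkk1), with 0.81 for Lef1 and Axin2. With 8 arrays that share groups and hairpins, many genes reach such values.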

How the data were processed

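The table the authors deposited gives linear intensity for 44903 probe sets on each array. How probes were combined into these intensities is not stated in the labels. Means trimmed by 2% of 488.9 to 490.0 show that arrays share 1 scale, and no normalization was added. Per the labels, labelling started from 100 ng RNA. Probe sets with exactly 1 symbol were kept (34771), array controls were dropped, and 34554 of the remaining 34758 were matched by gene identifier to the GRCm38.p6 gene table, with 0 symbols changed. The brightest probe set stood for each of 18140 genes. Values were fitted as log2(value + 16) on all 8 arrays with limma 3.58.1 in R 4.3.3 (group means; empirical Bayes with trend, where 4 residual degrees of freedom were joined by 5.95 from the prior). SE is the standard error from limma. Probe sets outside the filter took their values from the same fit over all probe sets. Precision is limited by having 2 arrays in each group. The fit was tested on simulated data with errors drawn independently for each array, which does not cover deviations that real arrays share. The members and lists were chosen with earlier results of these data known. Genes named were all members, the targeted genes and up to 4 called members per list and comparison by adjusted p. The 3 genes most like each tested member by Pearson's r were named too. Ctnnb1, Eomes, Mesp1, Wnt3, Wnt3a, the CapH2 and Smc2 values of Lefty1 and the correlations of Sfrp1 were added after values were seen. Alternatives changed the pseudocount, scaling, filter, probe set rule, trend, arrays fitted and replicate number, and left out each array in turn. The replicate arrays of Smc1 and GFP are biological replicates per the labels, which do not say what they share.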

Additional observations from a re-analysis of the deposited data

How the results depend on the processing

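Under 21 alternatives, 688 of 735 member values kept their direction and their side of the threshold, 4 lost a call, 5 gained one and 38 changed sign. Sp5 in the Smc1 knockdown ran from 2.32 to 4.38 and was called in 17. The count of members called there was 1, 0 to 1 when an array was left out, 0 with the Actb ratio as a term, and 3 (Sp5, Lef1 and Axin2) when only the Smc1 and GFP arrays were fitted. Against the condensin knockdowns it was 0, 0 to 1 with an array left out, and 1 (Sp5) with either replicate block. The Smc1 and GFP arrays share only a number (correlation of deviations 0.07 for Smc1 and GFP replicate 1, -0.15 for Smc2 hairpin 1 and GFP replicate 1; 0.41 for CapH2 hairpin 3 and Smc2 hairpin 1, whose hairpin numbers differ): with that replicate block Sp5 stayed at 3.41 against GFP, 1373 of 12400 genes were called in place of 1745, and no other member call changed against GFP; Wnt9a, Plaur and Pdgfra lost theirs. The all-gene count in Smc1 against GFP was 592 with the Actb ratio, 2693 with only the groups compared, and with 1 array fewer it was 140 or 1052 (Smc1 replicate 1 or 2 left out) and 233 or 562 (GFP replicate 1 or 2 left out). Against the condensin knockdowns it was 973, with 10 or 382 when Smc1 replicate 1 or 2 was left out, 467 without CapH2 hairpin 4, 594 or 571 when GFP replicate 1 or 2 was, 608 with only the groups compared, 602 with no filter, 584 with each probe set tested alone and 1663 with the Actb ratio. Each change of sign was of a value that was not called. Quantile normalization gave -0.036 for Axin2 between CapH2 and Smc2 and 0.026 for Gsc in CapH2 against GFP, and median centring -0.025 and 0.046. The Actb term gave -0.53 (Axin2), -0.23 (Lef1) and 0.051 (Gsc) in CapH2, -0.18 (Axin2) and -0.085 (Lef1) in Smc2, and -0.36 (Axin2), -0.15 (Lef1), -0.46 (Sp5) and -0.10 (Dkk1) between CapH2 and Smc2. Leaving out an array gave ranges of -0.34 to 0.47 (Axin2), -0.71 to 1.12 (Cdx1) and -0.39 to 0.35 (Gsc) in CapH2, -0.23 to 0.34 (Axin2), -0.10 to 1.73 (Cdx1), -0.14 to 0.60 (Gsc), -0.50 to 1.18 (Lef1) and -0.15 to 0.42 (Mixl1) in Smc2, and -0.12 to 0.65 (Gsc) in Smc1. Between CapH2 and Smc2 they were -0.39 to 0.42 (Axin2), -0.29 to 0.68 (Dkk1), -0.29 to 1.38 (Lef1) and -0.43 to 0.54 (Sp5), and in Smc1 against the condensin knockdowns -0.22 to 0.55 (Gsc) and -0.47 to 0.25 (Mixl1). The cause of these changes was not tested. Mixl1 and Gsc lay below the array median on all 8 arrays and Cdx1 on 6, so their levels, like those of the dim probe sets, may be background. Changes of sign also fell on Axin2 and Lef1, whose brightest probe sets lay above the median on all 8.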
